A study of Mus with 12 samples.

Results

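Macrophages of 2 genotypes, both given oxidised low-density lipoprotein (oxLDL), were compared gene by gene. The comparison uses 6 of the 12 sequenced libraries: 3 labelled KO with oxLDL and 3 labelled WT with oxLDL, chosen by their genotype and treatment labels. The labels give the source as primary macrophages of the mouse peritoneum, the lining of the abdominal cavity, and the genotypes as WT (wild type) and KO without the gene that was removed. WEE1, which delays mitosis by phosphorylating CDK1, appears in the series title beside atherosclerosis, inflammation and p65, a subunit of NF-κB. The treatment label reads oxLDL, and the titles of the same libraries read LDL. The other 6 libraries, 3 WT and 3 KO with no treatment label, are called untreated and are used here where the difference between genotypes is set beside the same difference without oxLDL. Strain, sex, age, dose, exposure time, and how or in which cells the gene was removed were not given in any source used here. Nothing in the labels says that replicates came from separate animals or cultures, so p-values measure only the spread between these libraries, which may be technical.

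Macrophages take up modified lipoproteins through scavenger receptors, store the cholesterol as ester in lipid droplets, and become the foam cells of atherosclerotic plaques. Surface and endosomal sensors such as the Toll-like receptors pass signals through MyD88 and TRIF to IκB kinases, which release NF-κB dimers of p65 (Rela) and p50 (from Nfkb1) into the nucleus, where they drive genes for cytokines, chemokines and their own inhibitors. Interferons made in the same response act through JAK kinases and STAT factors on a separate set of antiviral genes, while the nuclear receptors LXR and PPARγ govern cholesterol export and lipid storage.

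Read counts per library were 74676583, 53588814 and 74844007 in the WT and 75986567, 76809931 and 76164127 in the KO libraries with oxLDL, over 18679 to 20263 genes with reads. Of 27294 genes in the table, 17291 had enough reads to be tested. The 10 most abundant genes took 10.3% of reads in each WT library with oxLDL and 17.3% to 17.8% in KO, and the TMM scaling factors, which correct library size for such shifts in composition, were 0.832 to 0.843 in WT and 1.04 in KO. Levels below are FPKM (fragment counts scaled by transcript length and by library size alone). Differences are log2 values of KO minus WT on the TMM scale ± standard error (SE), n = 3 libraries a group, so a difference need not equal the ratio of the FPKM values beside it. Values in brackets after a pair of levels are such differences, and levels given with ± are means with their standard deviation (SD) over 3 libraries. Genes are called higher or lower where edgeR's quasi-likelihood test gave an adjusted p (Benjamini-Hochberg, over all genes tested) under 0.05.

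Wee1 (ENSMUSG00000031016, chromosome 7, 110122046 to 110143286, plus strand), the kinase in the series title, was not absent from the KO libraries with oxLDL. Its levels there were 1.44, 1.78 and 1.63 FPKM in WT and 1.3, 1.6 and 1.25 FPKM in KO. The groups overlapped, since WT replicate 1 lay below KO replicate 2. The fitted difference was -0.53 ± 0.14 (adjusted p = 0.0059), and this call was lost with library totals in place of TMM scaling, where the difference was -0.23. In untreated cells the difference was -0.93 ± 0.14 (adjusted p = 0.00014). The table holds 1 value per gene, so reads from a deleted exon could not be looked at apart from the rest, and the Wee1 level does not check the genotype labels. Wee1's coordinates lie on GRCm38: 99.9% of 21985 genes matched by symbol overlapped their GRCm38.p6 position, although the submitters' processing notes name build mm8.

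Macrophage identity was checked first against its markers. Transcripts of Lyz2 (lysozyme), Cd68 and Csf1r, the receptor for the macrophage growth factor CSF1, were abundant in both groups. Lyz2 stood at 12062, 12375 and 12913 FPKM in WT and 8641, 8795 and 8171 FPKM in KO, Csf1r at 137 ± 3.11 FPKM in WT and 134 ± 4.61 FPKM in KO (mean ± SD), and Cd68 at 1376 ± 75.9 and 2002 ± 56.3 FPKM. Gata6, the factor that defines large resident peritoneal macrophages, was near 0 in both, at 0.0991 ± 0.0474 FPKM in WT and 0.173 ± 0.0181 FPKM in KO, and its difference did not pass the test. Timd4, another marker of resident cells, was 1.75 ± 0.448 FPKM in WT and 0.0935 ± 0.0335 FPKM in KO. Of 16 tested identity genes of the large resident subset, 5 were called higher and 5 lower in KO. In bulk RNA, fewer cells of a type and less RNA per cell cannot be told apart, here or in the results that follow. The label of macrophage therefore matches the lineage genes, whereas the defining gene of the large resident subset was nearly absent from all 6 libraries.

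With oxLDL, KO and WT differed in most tested genes. Of 17291 genes, 10016 (57.9%) were called, 5286 (30.6%) higher in KO and 4730 (27.4%) lower. Counts within the gene lists with oxLDL are to be read beside these shares. Requiring at least a 2-fold difference left 2558 higher (14.8%) and 2376 lower (13.7%). At 16-fold or more the balance lay with genes lower in KO: 674 were lower (3.9%) and 382 were higher (2.21%). The split of calls depended on scaling. The median difference of all genes was 0.05 with TMM and 0.36 with library totals, and 52.8% of calls were higher in KO with TMM against 69.5% with library totals and 69.2% in limma on log2(FPKM + 1). Small log2 differences should be read against that shift. On the FPKM scale, 7918 genes (45.8%) had all 3 KO libraries above all 3 WT libraries and 3654 (21.1%) all 3 below.

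**Figure D1:**
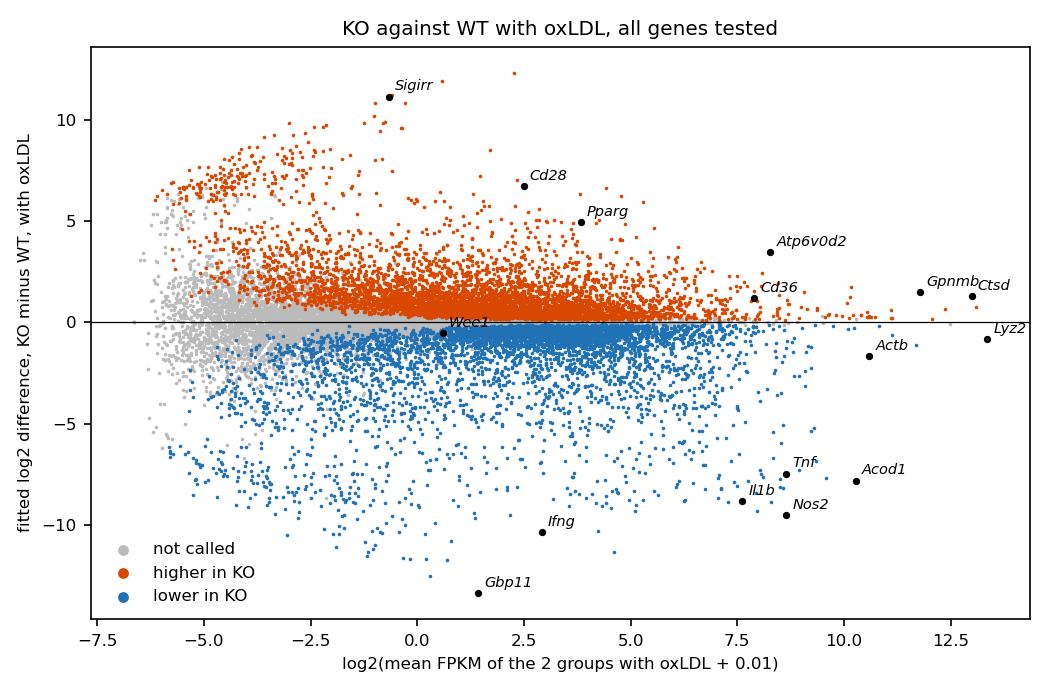
Fitted log2 difference of KO minus WT with oxLDL for the 17291 genes tested, against the log2 of the mean FPKM of both groups plus 0.01; orange points were called higher in KO, blue lower, grey not called. Genes lower in KO reach far down at every level of abundance, with Tnf at -7.47 and Nos2 at -9.51; points whose group of 3 libraries held no reads are fitted values that depend on the prior count.

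Most cytokine transcripts were lower in KO cells with oxLDL. Among 27 tested cytokines and growth factors, 21 were called lower, 2 higher and 4 not called, beside 27.4% lower among all genes, and the median difference was -5.08 against 0.05 for all genes. Tnf, the archetypal macrophage inflammatory cytokine, had 768, 806 and 819.5 FPKM in WT and 4.46, 5.57 and 6.6 FPKM in KO. Every KO library lay far below every WT library. The difference was -7.47 ± 0.13 (adjusted p = 1.4e-15). Il1b, which encodes the inflammasome-processed pyrogen IL-1β, had 385, 386 and 402 FPKM in WT and 0.502, 0.88 and 1.78 FPKM in KO, a difference of -8.83 ± 0.27 (adjusted p = 7.4e-13). Replicate 3 was the highest KO library for Il1b and still lay far below WT. For Il6, an inducer of the acute phase response, the levels were 37.8, 39.4 and 43.9 FPKM in WT and 0, 0.0966 and 0.171 FPKM in KO, with a difference of -9.06 ± 0.42 (adjusted p = 8.1e-11). One KO library held no Il6 reads and the groups did not overlap. Without KO replicate 3 the differences were -9.43 for Il1b and -9.97 for Il6.

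Several cytokines fell to nearly no reads in KO. Csf3, which encodes the neutrophil growth factor G-CSF, was 37.4 ± 3.06 FPKM in WT and 0.0318 ± 0.0327 FPKM in KO (difference -10.30 ± 0.37), and Il12a, a subunit of IL-12, was 46.3 ± 1.7 and 0.0916 ± 0.0819 FPKM (-9.14 ± 0.40). Csf2, which encodes GM-CSF, had 1.08, 2.02 and 0.819 FPKM in WT and no reads in any KO library, which makes it at least 98.8-fold lower when 3 counts are set as the floor for the KO group. Il1a, the gene of IL-1α, had 735, 741 and 729 FPKM in WT and 25.8, 26.6 and 28.1 FPKM in KO, with a difference of -5.08 ± 0.06 (adjusted p = 7.2e-17). Its level in KO was still the highest of the cytokines named here. Il1rn, the secreted antagonist of the IL-1 receptor, was lower as well, at 211, 259 and 247 FPKM in WT and 12.3, 12.4 and 12.9 FPKM in KO (-4.55 ± 0.07). Thus the agonists and their antagonist were both lower in KO. Without KO replicate 3 the differences were -11.25 for Csf3 and -10.09 for Il12a.

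The 2 cytokine genes higher in KO were growth factors. Vegfa, which drives blood vessel growth, was 2.15, 2.43 and 1.66 FPKM in WT and 8.48, 8.53 and 9.55 FPKM in KO (1.78 ± 0.12, adjusted p = 6.8e-09). Igf1, insulin-like growth factor 1, was 5.33, 5.45 and 5.73 FPKM in WT and 14.7, 14.8 and 13.9 FPKM in KO (1.09 ± 0.04, adjusted p = 1.4e-11). For both genes every KO library was above every WT library.

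Chemokine genes, whose products draw leukocytes into tissue, followed the cytokines: 19 of 21 tested were lower, 1 higher and 1 not called, with a median of -6.49. Ccl2, the main attractant of monocytes, had 719, 798 and 849 FPKM in WT and 5.31, 5.56 and 5.84 FPKM in KO. The KO libraries were tightly grouped far below WT, and the difference was -7.44 ± 0.09 (adjusted p = 7.3e-17). Ccl3, one of the most abundant transcripts of WT cells with oxLDL, had 1161, 1133 and 1207 FPKM in WT and 34.6, 35.2 and 34.5 FPKM in KO (-5.37 ± 0.06). The interferon-induced ligands of CXCR3 were lower too: Cxcl10 was 498 ± 29.1 FPKM in WT and 0.953 ± 0.487 FPKM in KO (-9.31 ± 0.24), and Cxcl9 was 23.4 ± 1.73 and 0.0492 ± 0.0387 FPKM (-9.09 ± 0.27). Cxcl11, the remaining gene of that trio, had 0.311, 0.445 and 0.497 FPKM in WT and no reads in KO, a fall of at least 158-fold. Only Cxcl14 among the listed chemokines was called higher, at 0.179, 0.0964 and 0.182 FPKM in WT and 0.693, 1.35 and 0.926 FPKM in KO (2.34 ± 0.33, adjusted p = 2.4e-05). The Cxcl9 difference was -9.84 without KO replicate 3.

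**Figure D2:**
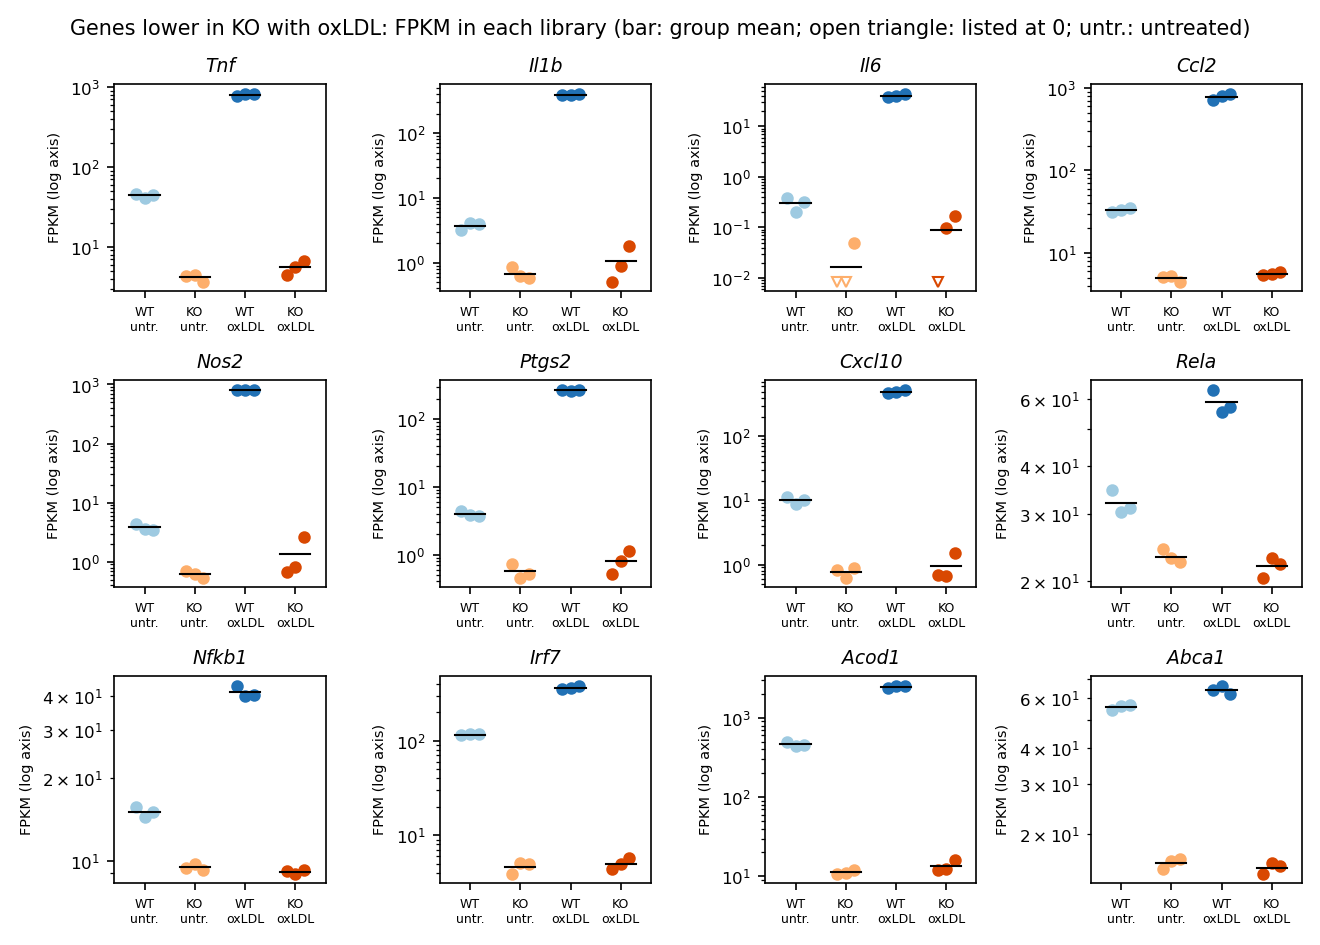
FPKM on log axes in each of the 12 libraries for 12 genes lower in KO with oxLDL; points are libraries, bars group means, and open triangles, set below all other values, libraries listed at 0. In each panel the 3 KO libraries with oxLDL lie below the 3 WT libraries with oxLDL, for Tnf at 4.46 to 6.6 against 768 to 819.5 FPKM.

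The transcription factor named in the series title was itself lower in KO at the RNA level. Rela, which encodes p65, had 63.2, 55.5 and 57.1 FPKM in WT and 20.4, 23.0 and 22.2 FPKM in KO. The groups were well apart, with the lowest WT library above 2 times the highest KO library, and the difference was -1.72 ± 0.07 (adjusted p = 1.5e-11). Nfkb1, the gene of the p50 precursor, had 43.4, 39.8 and 40.1 FPKM in WT and 9.15, 8.95 and 9.23 FPKM in KO (-2.48 ± 0.05, adjusted p = 9.2e-15). All 16 tested NF-κB subunits and IκB or kinase genes were called lower and none higher, with a median of -2.26. With library totals 14 of the 16 were lower. The largest differences belonged to inhibitors that NF-κB itself induces: Nfkbiz (45.0 ± 1.58 FPKM in WT, 1.54 ± 0.138 in KO, -5.17 ± 0.09), Nfkbia, which encodes IκBα (174 ± 21.9 and 11.2 ± 0.38 FPKM, -4.25 ± 0.08), and Nfkbie (44.2 ± 11.7 and 3.01 ± 0.506 FPKM, -4.18 ± 0.18). At the other end stood Chuk, which encodes the kinase IKKα and falls outside the naming rule, with 10.2 ± 0.84 FPKM in WT and 10.3 ± 0.418 FPKM in KO and a TMM-scaled difference of -0.29.

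Known NF-κB feedback and effector genes were lower in KO without exception on the TMM scale: 30 of 30 tested were called, with a median of -4.55. With library totals 29 of the 30 were lower, and with quantile normalization 29 were lower and 1 was higher. Nos2, the inducible nitric oxide synthase, had 809, 806 and 793 FPKM in WT and 0.665, 0.83 and 2.58 FPKM in KO (-9.51 ± 0.41, adjusted p = 3.3e-11). KO replicate 3 was the highest of its group, as for Il1b, and lay far below WT, and the difference was -10.37 without it. Ptgs2, the inducible cyclooxygenase COX-2, had 268, 261 and 265 FPKM in WT and 0.514, 0.792 and 1.12 FPKM in KO (-8.66 ± 0.22), and Lcn2, the iron-binding protein lipocalin 2, had 94.0 ± 7.12 FPKM in WT and 0.348 ± 0.145 FPKM in KO (-8.34 ± 0.22). Cd40, a costimulatory receptor, was 126 ± 9.33 and 1.24 ± 0.269 FPKM (-6.96 ± 0.13). The smallest difference of the list, that of Plaur (urokinase receptor, outside the naming rule), was -0.18 on the TMM scale while its mean FPKM was 66.8 ± 3.01 in WT and 72.5 ± 3.56 in KO.

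Upstream of NF-κB the picture was mixed. In the Toll-like receptor pathway 19 of 27 genes were lower and 7 higher, with a median of -0.81. Tlr2, a receptor for bacterial lipoproteins, was 251, 254 and 248 FPKM in WT and 17.9, 17.1 and 17.3 FPKM in KO (-4.15 ± 0.05), and the coreceptor Cd14 was 343, 338 and 328 FPKM in WT and 24.7, 22.7 and 23.5 FPKM in KO (-4.13 ± 0.06). Both groups of libraries were far apart for these genes. Tlr3, the sensor of double-stranded RNA, was 15.4 ± 1.46 FPKM in WT and 1.43 ± 0.156 FPKM in KO (-3.73 ± 0.13). Tlr4, the lipopolysaccharide receptor (outside the naming rule), was in contrast 9.7 ± 0.422 FPKM in WT and 14.2 ± 0.396 FPKM in KO, a difference of 0.25 ± 0.05. Tlr13, an endosomal sensor of bacterial ribosomal RNA, was higher in KO at 59.0, 59.4 and 60.2 FPKM in WT and 127, 136 and 133 FPKM in KO (0.85 ± 0.05). Tlr5 was also called higher (4.50 ± 1.02) but at 0.112 ± 0.0172 FPKM in KO. The Tlr5 difference was 3.90 without WT replicate 1 and 8.34 without WT replicate 3.

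Inflammasome genes, which mature IL-1β and trigger pyroptosis, differed in both directions: 9 of 15 were lower and 6 higher, with a median of -0.40. The sensors Mefv (106 ± 3.22 FPKM in WT, 1.71 ± 0.167 in KO, -6.25 ± 0.09) and Nlrp3 (102, 99.5 and 103 FPKM in WT and 4.5, 4.07 and 4.33 FPKM in KO; -4.86 ± 0.06) were lower, as was Il18bp, the decoy that neutralises IL-18 (-4.77 ± 0.08). Nlrp1b, another sensor, was higher, at 0.0751, 0.0747 and 0.0674 FPKM in WT and 1.95, 2.33 and 2.38 FPKM in KO (4.58 ± 0.14), together with the ATP-gated channel P2rx7 (10.0 ± 0.253 and 27.3 ± 0.731 FPKM, 1.14 ± 0.04) and Txnip, a thioredoxin inhibitor (12.7 ± 0.53 and 55.8 ± 1.16 FPKM, 1.83 ± 0.04). Nlrp1b is part of a cluster of near-identical genes, and how reads shared by such copies were counted is not given here.

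The interferon programme was lower throughout in KO. All 34 tested interferon-stimulated genes were called lower, with a median of -5.28, and all 34 were lower with library totals, quantile normalization, DESeq2 and limma on FPKM. Ifit3, an antiviral RNA-binding protein, was 317, 349.9 and 365 FPKM in WT and 1.32, 1.98 and 2.01 FPKM in KO (-7.90 ± 0.15, adjusted p = 4.7e-15). Mx1, an antiviral GTPase, was 161, 179 and 188 FPKM in WT and 0.814, 0.825 and 0.957 FPKM in KO (-7.96 ± 0.13), and Ifi44 was 31.0 ± 1.27 FPKM in WT and 0.0933 ± 0.0477 FPKM in KO (-8.66 ± 0.19). No KO library reached any WT library for these genes. Their summed level ran from 5351 to 5962 FPKM in the WT and from 169 to 187 FPKM in the KO libraries. Ifit, Oas and Gbp genes lie in families with near-identical copies, so single members are less certain than the family.

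Guanylate-binding proteins and immunity-related GTPases, which attack vacuoles of intracellular pathogens, had the lowest median of the 33 lists at -7.46. All 16 were lower. Gbp2 was 961, 983 and 1008 FPKM in WT and 6.59, 8.6 and 8.25 FPKM in KO (-7.28 ± 0.12), and Iigp1 was 69.0 ± 5.34 FPKM in WT and 0.13 ± 0.0648 FPKM in KO (-9.34 ± 0.22). Gbp11 had 5.44, 5.09 and 5.64 FPKM in WT and no reads in KO, a fall of at least 1450.0-fold.

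Of 28 receptors, IRF, JAK, STAT and SOCS genes, 21 were lower and 3 higher, with a median of -1.23. Irf7, the factor that amplifies type I interferon, was 349, 366 and 381 FPKM in WT and 4.34, 5.02 and 5.71 FPKM in KO (-6.48 ± 0.11). The feedback inhibitors Socs3 (147 ± 6.49 FPKM in WT, 3.03 ± 0.212 in KO, -5.90 ± 0.08) and Socs1 (1.45 ± 0.215 and 0.0301 ± 0.0144 FPKM, -5.81 ± 0.34) were lower too. Ifngr1, the ligand-binding chain of the interferon-γ receptor, went the other way, at 14.4, 13.6 and 13.4 FPKM in WT and 37.3, 39.6 and 42.2 FPKM in KO (1.22 ± 0.05), as did Stat6, which carries interleukin-4 signals (42.1 ± 1.4 and 69.7 ± 3.28 FPKM, 0.43 ± 0.05). Ifng itself, usually a product of T and NK cells, had 14.8, 16.4 and 14.0 FPKM in WT and 0, 0 and 0.0319 FPKM in KO (-10.36 ± 0.51). With library totals, 5 genes of this list were higher and 20 lower. The Ifng difference was -13.78 without KO replicate 3.

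Metabolic genes tied to inflammatory activation followed the same division. Acod1, which makes itaconate from an intermediate of the citrate cycle, was among the most abundant WT transcripts at 2359, 2529 and 2497 FPKM in WT and 12.1, 12.4 and 15.9 FPKM in KO (-7.81 ± 0.12, adjusted p = 3.5e-16). Slc7a2, an arginine importer, was 153, 155 and 154 FPKM in WT and 1.91, 1.96 and 2.35 FPKM in KO (-6.52 ± 0.08), and Arg1, arginase 1, was 5.07 ± 0.517 FPKM in WT and 0.5 ± 0.107 FPKM in KO (-3.62 ± 0.21). In the list of nitric oxide, arginine and itaconate genes 9 of 16 were lower and 5 higher (7 and 8 with library totals). Idh1, cytosolic isocitrate dehydrogenase, was the most raised of them, at 11.2, 10.9 and 10.3 FPKM in WT and 126, 131 and 122 FPKM in KO (3.24 ± 0.04, adjusted p = 2e-16). The mitochondrial enzyme Idh2 was 4.42 ± 0.332 and 15.8 ± 0.314 FPKM (1.53 ± 0.09).

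Among 22 glycolysis and hypoxia genes 15 were lower and 5 higher, with a median of -0.59. Pfkfb3, which produces the main activator of phosphofructokinase, was 55.6, 59.1 and 58.0 FPKM in WT and 9.01, 9.77 and 9.76 FPKM in KO (-2.90 ± 0.05), and Hif1a, the hypoxia-inducible factor, was 94.8, 102 and 95 FPKM in WT and 24.3, 24.6 and 24.1 FPKM in KO (-2.30 ± 0.05). Pgam1, an enzyme of the lower pathway, was 122 ± 13.4 FPKM in WT and 205 ± 12.4 FPKM in KO (0.45 ± 0.07). Gapdh, often used as a reference gene, differed by -0.60 ± 0.09 and is not steady between these groups on the TMM scale. Actb, the reference gene for actin, was 2397, 2151 and 2125 FPKM in WT and 808, 861 and 935 FPKM in KO (-1.66 ± 0.06, adjusted p = 9.1e-12).

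Of 18 tested eicosanoid genes, 9 were higher and 8 lower, with a median of 0.51. Among the named genes of inducible prostaglandin E synthesis, besides Ptgs2, Ptges was lower at 353, 360.3 and 361 FPKM in WT and 1.46, 1.47 and 2.02 FPKM in KO (-8.06 ± 0.13) and the phospholipase Pla2g4a at 21.5 ± 0.53 and 2.87 ± 0.16 FPKM (-3.21 ± 0.07). The leukotriene genes named by the rule were higher. Lta4h, which makes leukotriene B4, was 3.07, 3.05 and 2.71 FPKM in WT and 17.7, 18.6 and 17.4 FPKM in KO (2.30 ± 0.06), and Ltc4s, which makes leukotriene C4, was 0.218 ± 0.12 and 1.76 ± 0.306 FPKM (2.66 ± 0.48). Alox5, which begins the branch, was also called higher (2.79 ± 0.91) but stood at only 0.129 ± 0.0345 FPKM in KO, and was not called when the 6 libraries with oxLDL were fitted alone (2.80). Without WT replicate 1 it was 2.18, and without WT replicate 3 8.36.

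**Figure D3:**
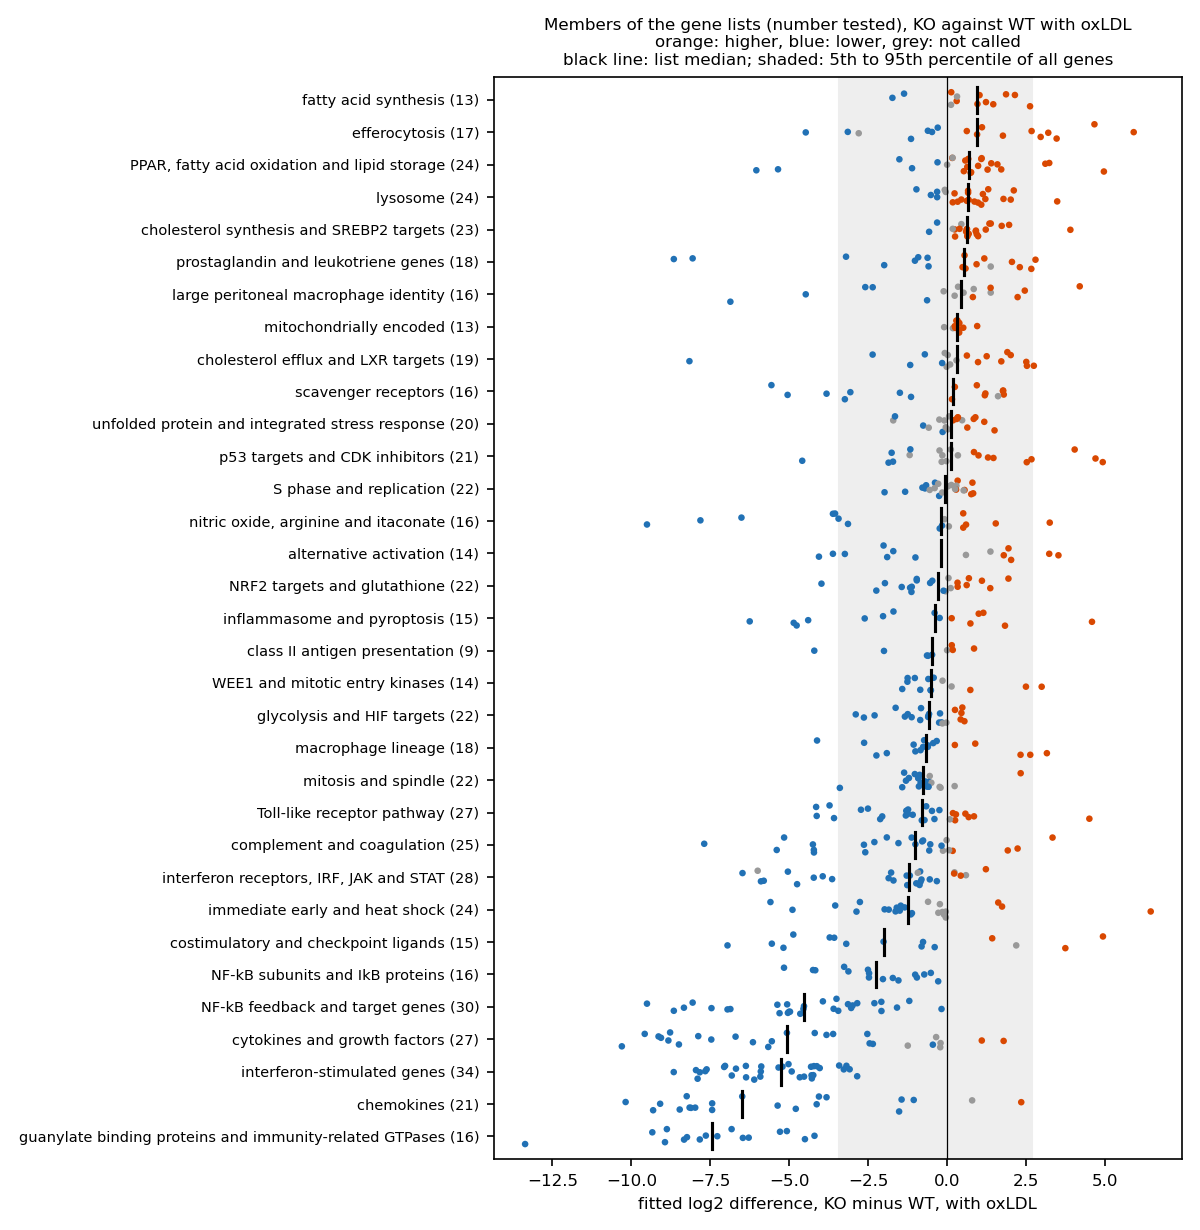
Fitted log2 difference of KO minus WT with oxLDL for the tested members of 33 gene lists, 1 point per gene (orange called higher, blue called lower, grey not called), with black lines at list medians and shading from the 5th to the 95th percentile of all genes (-3.44 to 2.68). List medians run from -7.46 for guanylate-binding proteins and immunity-related GTPases to 0.95 for fatty acid synthesis.

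Many lipid-handling genes had higher levels in KO cells. Cd36, a scavenger receptor for oxLDL, was 119, 128 and 123 FPKM in WT and 345, 378 and 331 FPKM in KO. Every KO library stood above 2 times every WT library, and the difference was 1.21 ± 0.05 (adjusted p = 1.1e-11). Scavenger receptors did not move as a set: 8 of 16 were higher, 7 lower, with a median of 0.19. Lrp1 (79.8, 71.0 and 69.4 FPKM in WT and 284, 296 and 340.0 FPKM in KO; 1.76 ± 0.07), which takes up lipoprotein remnants, the mannose receptor Mrc1 (16.6, 18.0 and 17.9 FPKM in WT and 75.0, 77.6 and 70.7 FPKM in KO; 1.79 ± 0.05) and the β-glucan receptor Clec7a (1.77 ± 0.05) were higher. Marco, a class A scavenger receptor, was 101, 104 and 111 FPKM in WT and 2.91, 2.9 and 2.41 FPKM in KO (-5.57 ± 0.12), and Scarf1 was 38.2 ± 1.15 and 1.41 ± 0.00895 FPKM (-5.06 ± 0.11). Msr1, the classical class A receptor for modified LDL (outside the naming rule), was 176 ± 8.85 FPKM in WT and 25.9 ± 1.5 FPKM in KO (-3.07 ± 0.05).

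PPARγ (Pparg), the nuclear receptor that promotes lipid uptake and storage, was low in WT and well expressed in KO: 0.771, 0.613 and 0.758 FPKM in WT and 27.0, 28.0 and 28.3 FPKM in KO. The groups were far apart, with a difference of 4.96 ± 0.08 (adjusted p = 7.2e-16). Fabp4, a fatty acid carrier and known PPARγ target, was 10.1, 11.3 and 12.5 FPKM in WT and 133, 125 and 102 FPKM in KO (3.10 ± 0.10), and Mgll, which splits monoglycerides, was 3.11 ± 0.371 FPKM in WT and 35.9 ± 0.601 FPKM in KO (3.23 ± 0.08). In the list of PPAR, fatty acid oxidation and lipid storage genes, 17 of 24 were higher and 5 lower, with a median of 0.70 (all genes: 30.6% higher). Plin2, the coat protein of macrophage lipid droplets, was 166, 178 and 173 FPKM in WT and 361, 365 and 337 FPKM in KO (0.74 ± 0.04, adjusted p = 1.8e-09). Enzymes of triglyceride formation were among the exceptions: Dgat2 was 4.23, 3.62 and 3.24 FPKM in WT and 0.047, 0.0937 and 0.0586 FPKM in KO (-6.04 ± 0.33) and the acyl-CoA synthetase Acsl1 was 186, 192 and 190.0 FPKM in WT and 5.52, 5.44 and 6.12 FPKM in KO (-5.36 ± 0.06).

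Cholesterol export genes pointed both ways. Abca1, the transporter that loads cholesterol onto apolipoprotein A-I, was lower in KO, at 63.9, 66.0 and 61.7 FPKM in WT and 14.5, 15.9 and 15.5 FPKM in KO (-2.36 ± 0.04, adjusted p = 3.2e-15). Its partner Abcg1, which exports to mature high-density lipoprotein and falls outside the naming rule, was higher, at 8.23 ± 0.703 FPKM in WT and 37.9 ± 2.87 FPKM in KO (1.90 ± 0.07). Apoe, an apolipoprotein secreted by macrophages, was 585, 557 and 580.0 FPKM in WT and 1735, 1687 and 1616 FPKM in KO (1.25 ± 0.06). Among 19 efflux and LXR target genes 9 were higher and 5 lower, with a median of 0.29. Enzymes that free or modify stored cholesterol were higher: Lipa, lysosomal acid lipase, was 67.4, 65.9 and 69.0 FPKM in WT and 330.0, 342 and 332 FPKM in KO (2.01 ± 0.03), Nceh1, a neutral cholesterol ester hydrolase, was 14.9 ± 1.17 and 104 ± 2.36 FPKM (2.5 ± 0.05), and Cyp27a1 was 0.837 ± 0.189 and 7.02 ± 0.931 FPKM (2.74 ± 0.16). Ch25h, an interferon-induced hydroxylase, was lower, at 23.0, 22.8 and 21.9 FPKM in WT and 0.0654, 0.0705 and 0.135 FPKM in KO (-8.16 ± 0.24).

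Genes of cholesterol synthesis, controlled by SREBP2, were mostly higher: 19 of 23 were higher and 2 lower, with a median of 0.64. Dhcr7, the enzyme of the last step to cholesterol, led the list at 0.605, 0.503 and 0.392 FPKM in WT and 8.8, 9.03 and 9.92 FPKM in KO (3.90 ± 0.13, adjusted p = 2.5e-12). No WT library came near a KO library. Sc5d, another enzyme of the late part of the pathway, was 5.16 ± 0.388 FPKM in WT and 21.0 ± 1.12 FPKM in KO (1.72 ± 0.07). Fatty acid synthesis genes had the highest list median at 0.95, with 9 of 13 higher and 2 lower (1 lower without WT replicate 2 or 3 or without KO replicate 1 or 2). Scd2 (2.62, 3 and 3.04 FPKM in WT and 20.3, 22.7 and 22.6 FPKM in KO; 2.62 ± 0.07), Elovl5 (2.14 ± 0.06) and Fads1 (1.86 ± 0.07), which desaturate or lengthen fatty acids, led it.

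Lysosomal genes were higher in 18 of 24 cases and lower in 4 (2 lower with library totals and 1 with quantile normalization), with a median of 0.66. Atp6v0d2, a subunit of the proton pump, was 42.1, 41.3 and 43.0 FPKM in WT and 576, 600.2 and 562 FPKM in KO (3.48 ± 0.04, adjusted p = 5.7e-17). Tfeb, a master regulator of lysosome genes, was 2.55, 1.36 and 1.57 FPKM in WT and 8.22, 9.49 and 11.6 FPKM in KO (2.11 ± 0.19). Its relatives Mitf (-0.98 ± 0.05) and Tfe3 (-0.52 ± 0.07; not called with quantile normalization, -0.15) were called lower. The protease Ctsd was the transcript with the largest gain in FPKM of all called genes, at 3998, 4019.9 and 4139 FPKM in WT and 12598, 12523 and 11704 FPKM in KO (1.30 ± 0.04). Psap, a cofactor for breaking down sphingolipids, was 5856, 5584 and 5471 FPKM in WT and 11668, 11903 and 12122 FPKM in KO (0.78 ± 0.04 on the TMM scale and -0.040 with quantile normalization), and Gpnmb, a glycoprotein of lysosome-stressed and lipid-laden macrophages, was 1595, 1613 and 1544 FPKM in WT and 5488, 5497 and 5583 FPKM in KO (1.5 ± 0.03). Further abundant genes with large gains were Lgals3 (galectin 3, 439, 409.7 and 481 FPKM in WT and 1957, 1977 and 1602 FPKM in KO), Ftl1 (ferritin light chain, 0.67 ± 0.08), Spp1 (osteopontin, 0.95 ± 0.04) and Ctsb (0.62 ± 0.03). With quantile normalization the difference was 0.41 for Ctsd, 0.45 for Gpnmb, 1.26 for Ftl1 and 2.34 for Lgals3.

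Receptors for dead cells and their bridging proteins were higher in 10 of 17 cases and lower in 6, with a median of 0.94. Cd300a, a phosphatidylserine receptor with inhibitory motifs, was 6.22, 5.81 and 6.07 FPKM in WT and 83.2, 84.2 and 78.7 FPKM in KO (3.46 ± 0.05). Itgb3, an integrin chain for bridged apoptotic cells, was 0.367, 0.391 and 0.344 FPKM in WT and 11.4, 12.1 and 10.9 FPKM in KO (4.66 ± 0.09), and the bridging protein Mfge8 (outside the naming rule) was 18.9 ± 0.598 and 181 ± 3.95 FPKM (2.96 ± 0.05). Axl, the receptor kinase induced by interferon, was lower at 68.0, 64.6 and 67.5 FPKM in WT and 8.6, 9.47 and 9.71 FPKM in KO (-3.15 ± 0.06). Stab2, a clearance receptor, was called higher but reached only 0.321 ± 0.0145 FPKM in KO.

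**Figure D4:**
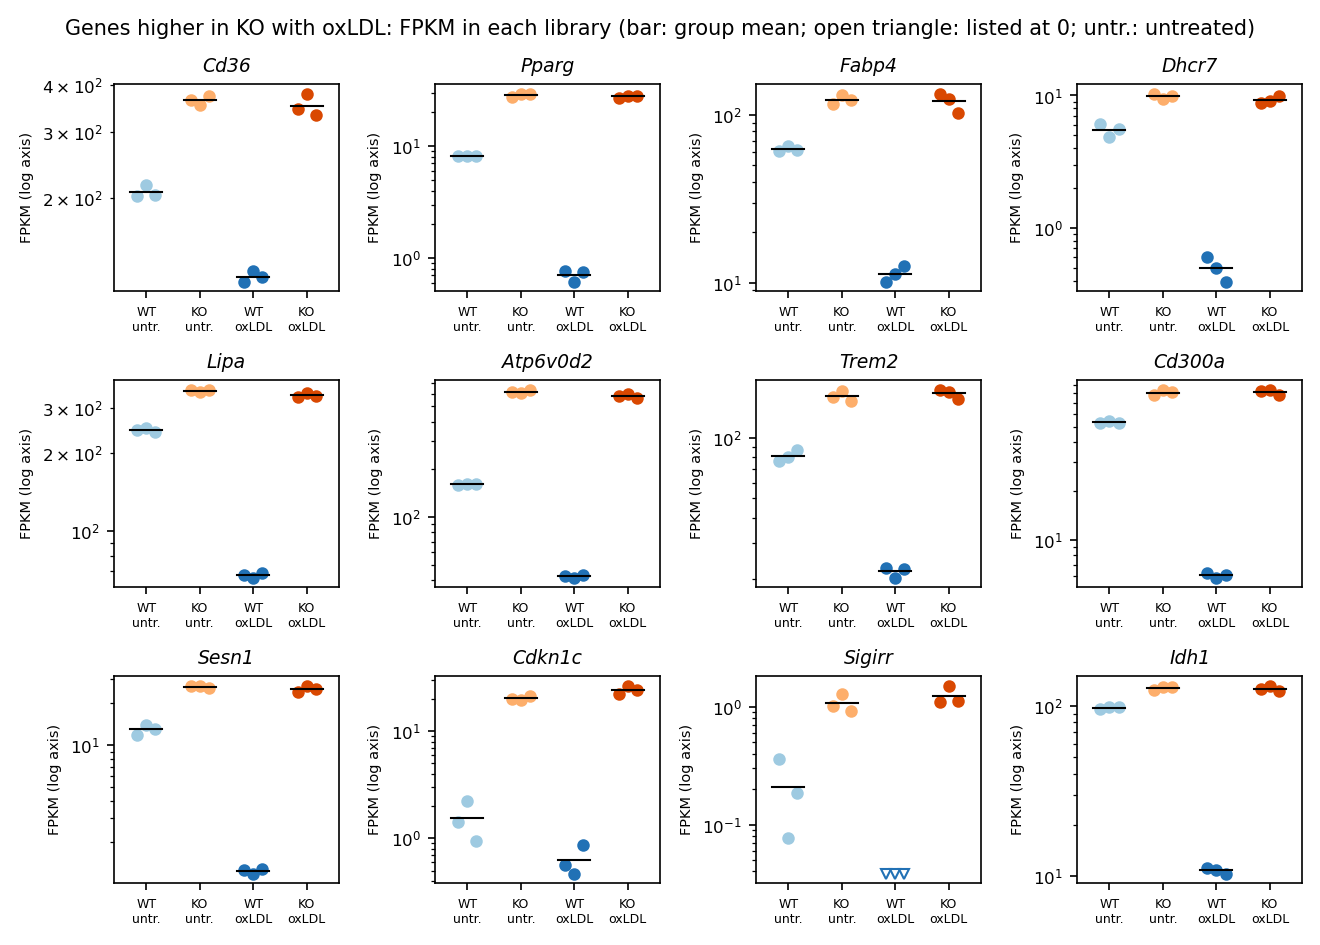
FPKM on log axes in each of the 12 libraries for 12 genes higher in KO with oxLDL; points are libraries, bars group means, and open triangles, set below all other values, libraries listed at 0. In each panel the 3 KO libraries with oxLDL lie above the 3 WT libraries with oxLDL, for Pparg at 27.0 to 28.3 against 0.613 to 0.771 FPKM.

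Since the series concerns a cell cycle kinase, the cycle genes were described as groups. Mki67, the proliferation marker, was at 24.6, 23.5 and 22.8 FPKM in WT and 2.79, 2.66 and 2.81 FPKM in KO (-3.40 ± 0.07). Of 22 mitosis and spindle genes 16 were lower and 1 higher on the TMM scale, with a median of -0.77; with library totals 11 were lower and 2 higher, and 2 were higher without WT replicate 2. Ccna2, which encodes cyclin A2, was 1.47 ± 0.117 FPKM in WT and 0.675 ± 0.272 FPKM in KO (-1.43 ± 0.28). In the list of WEE1, its targets and other mitotic entry genes, 9 of 14 were lower and 3 higher, against 4 lower with library totals. The genes higher in KO were Chek2, a DNA damage kinase (0.55, 0.41 and 0.606 FPKM in WT and 5.58, 4.98 and 5.05 FPKM in KO; 2.99 ± 0.13), Cdc25b, a phosphatase that opposes WEE1 (0.871, 0.882 and 0.643 FPKM in WT and 5.37, 5.24 and 6.19 FPKM in KO; 2.49 ± 0.12), and Cdk2 (0.73 ± 0.07). Cdk1, the substrate of WEE1 (outside the naming rule), was 0.711 ± 0.15 FPKM in WT and 0.611 ± 0.132 FPKM in KO.

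Of 22 replication genes 6 were higher and 7 lower, shares close to those of all genes, and with library totals 11 were higher and 3 lower. Ccne1, cyclin E1, was 2.6 ± 0.505 and 0.807 ± 0.0718 FPKM (-1.99 ± 0.18), and the helicase subunit Mcm2 was 0.946 ± 0.02 and 2.06 ± 0.144 FPKM (0.82 ± 0.10). In the list of p53 targets and CDK inhibitors, 9 of 21 were higher and 5 lower, with a median of 0.11. Among all genes 30.6% were higher and 27.4% lower. Cdkn1a, which encodes the CDK inhibitor p21, was lower at 40.0, 32.6 and 37.2 FPKM in WT and 12.5, 12.6 and 12.2 FPKM in KO (-1.86 ± 0.08), while Cdkn1c, which encodes p57, was higher at 0.562, 0.466 and 0.86 FPKM in WT and 22.1, 26.5 and 24.4 FPKM in KO (4.92 ± 0.26). The paralogues therefore differed in opposite directions. Sesn1, a stress protein that restrains mTORC1, was 1.27, 1.19 and 1.3 FPKM in WT and 24.1, 26.6 and 25.5 FPKM in KO (4.03 ± 0.07, adjusted p = 1e-15), and Phlda3 was 0.114, 0.0414 and 0.294 FPKM in WT and 4.92, 5.59 and 4.72 FPKM in KO (4.69 ± 0.35). The Phlda3 difference was 5.59 without WT replicate 3.

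Macrophage lineage genes were lower in 13 of 18 cases and higher in 5, with a median of -0.67, and their summed level was 15354 to 16392 FPKM in WT and 11626 to 12362 FPKM in KO. Lyz2 alone held most of that sum, at means of 12450 FPKM in WT and 8536 FPKM in KO, so the sum says little about the other genes. Of the 5 higher genes, Cd68 had means of 1376 and 2002 FPKM and Tyrobp 257 and 586 FPKM. Adgre1, which encodes the antigen F4/80, was 749, 762 and 776 FPKM in WT and 149, 157 and 149 FPKM in KO (-2.63 ± 0.04), and Fcgr1, the high-affinity IgG receptor, was 122, 135 and 137 FPKM in WT and 9.43, 9.45 and 8.96 FPKM in KO (-4.12 ± 0.06). The lipid receptor Trem2 was higher at 22.6, 20.2 and 22.5 FPKM in WT and 173, 169 and 156 FPKM in KO (2.63 ± 0.07), as was the transcription factor Cebpa (3.19, 2.62 and 2.29 FPKM in WT and 30.4, 30.0 and 28.7 FPKM in KO; 3.15 ± 0.09).

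Genes that speak to T cells and to complement were mainly lower. Of 15 costimulatory and checkpoint genes 11 were lower and 3 higher (median -2.02): besides Cd40, Icosl was 14.1 ± 1 and 0.475 ± 0.0444 FPKM (-5.19 ± 0.16), whereas the inhibitory receptors Vsir (8.42, 7.9 and 7.29 FPKM in WT and 129.6, 131 and 127 FPKM in KO; 3.74 ± 0.05) and Havcr2, which encodes TIM-3 (0.487, 0.681 and 0.449 FPKM in WT and 19.9, 21.4 and 18.8 FPKM in KO; 4.93 ± 0.12), were higher. Among 25 complement and coagulation genes 18 were lower and 4 higher, with a median of -1.01 (library totals gave 7 higher). Cfb, factor B of the alternative pathway, was 1478, 1502 and 1557 FPKM in WT and 7.83, 8.37 and 10.8 FPKM in KO (-7.69 ± 0.13), and C3, the central component, was 655, 619 and 606 FPKM in WT and 17.5, 17.7 and 19.7 FPKM in KO (-5.40 ± 0.08). The anticoagulant receptor Thbd was higher at 1.47, 1.39 and 1.36 FPKM in WT and 17.4, 17.6 and 17.5 FPKM in KO (3.33 ± 0.07). Alternative activation genes went both ways, 5 of 14 higher and 7 lower, with Mgl2 (3.23 ± 0.46) and Clec10a (2.02 ± 0.24) raised beside Mrc1 and Arg1 lowered.

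The largest differences upward, among named genes at 1 FPKM or more in KO and with groups that did not overlap, included 4 with no reads in any WT library. Sigirr, an inhibitory member of the IL-1 receptor family, had 1.11, 1.5 and 1.12 FPKM in KO, which is at least 219-fold above a floor of 3 counts for the WT group. Ramp1, part of the receptor for the neuropeptide CGRP, had 1.26, 1.23 and 1.44 FPKM (at least 228-fold), Sfrp5, a secreted Wnt inhibitor, 1.35, 1.79 and 1.68 FPKM (at least 176-fold), and Awat1, an acyltransferase, 1.31, 0.895 and 1.27 FPKM (at least 92.7-fold). Mamdc2 was 0.334, 0.367 and 0.335 FPKM in WT and 42.4, 43.1 and 41.5 FPKM in KO (6.63 ± 0.11). Cd28, known as a T cell receptor for costimulation, was 0.0816, 0.0801 and 0.091 FPKM in WT and 11.1, 11.3 and 10.9 FPKM in KO (6.70 ± 0.12). Galnt9 (8.50 ± 0.35), Tceal7 (7.02 ± 0.45) and Slc27a6, a fatty acid transport protein (6.42 ± 0.39), completed the set with Trav14n-3, a T cell receptor variable segment that was 0, 0.0975 and 0 FPKM in WT and 5.91, 5.69 and 4.81 FPKM in KO, a ratio of 171 with a 95% counting interval of 47.1 to 1420.0. In passing over unnamed gene models, 5 upward and 3 downward were skipped. Without WT replicate 3 the differences were 7.86 for Galnt9, 8.30 for Tceal7 and 7.51 for Slc27a6, and without WT replicate 1 6.36 for Tceal7 and 5.77 for Slc27a6.

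The abundant genes with the largest losses in FPKM were of immune function for the greater part. Lyz2, Acod1, Ccl3, Gbp2, Actb and Cfb belong to them and appear elsewhere in the text. B2m, the light chain of class I antigen presentation, was 3974, 4351 and 4431 FPKM in WT and 2569, 2439.7 and 2223 FPKM in KO (-1.12 ± 0.06). Saa3, an acute phase protein, was 1129, 1321 and 1408 FPKM in WT and 13.7, 13 and 14.0 FPKM in KO (-6.87 ± 0.12), Clec4e, a receptor for mycobacterial glycolipid, was 1171, 1199.9 and 1276 FPKM in WT and 39.5, 42.8 and 38.7 FPKM in KO (-5.22 ± 0.05), and Ifitm3, which blocks viral entry, was 902, 963 and 1015 FPKM in WT and 131, 138 and 126 FPKM in KO (-3.17 ± 0.05). In all 4 genes the WT and KO libraries were well apart.

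Downward, 8 of the 10 genes so ranked had no reads in any KO library. Gzmb (granzyme B, 2.93, 3.74 and 2.94 FPKM in WT) and Pla1a (a phosphatidylserine phospholipase, 1.88, 2.47 and 2.46 FPKM) were at least 450.0-fold and 450.0-fold lower. Hrc (447-fold), Gbp2b (417-fold), Klri1 (189-fold), Rnase10 (185-fold), Nt5c1a (180.0-fold) and Ly6c1 (177-fold) had the same pattern, with folds that are likewise lower bounds. Gbp2b varied among WT libraries, at 1.78, 2.43 and 0.494 FPKM. U90926, a long noncoding RNA, was 40.6, 52.4 and 52.5 FPKM in WT and 0, 0.052 and 0 FPKM in KO (-11.35 ± 0.43). Without KO replicate 2 it was -14.77.

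Markers of other cell types were low beside the macrophage genes, and some moved with genotype. Of 10 tested T and NK cell markers 9 were lower in KO and none higher, and 6 had no reads in one group. Their summed level was 3.51 to 4.19 FPKM in WT and 0.814 to 1.04 FPKM in KO, with Cd3e, Cd3g, Cd8a and Trac at 0 in KO and at 0.0321 to 0.0934 FPKM in WT. Ncr1, an NK cell receptor, was 0.558, 0.713 and 0.905 FPKM in WT and had no KO reads (a fall of at least 113-fold). The part of such cells in the levels of Ifng, Gzmb and Klri1 was not tested. Fitted alone, the 6 libraries with oxLDL gave 5 T and NK markers lower. Monocyte markers were lower in 6 of 8 cases, with summed levels of 163 to 185 FPKM in WT and 50.4 to 58.4 FPKM in KO: Ly6c2 was 41.1, 41.2 and 44.7 FPKM in WT and 0.473, 0.632 and 0.546 FPKM in KO (-6.54 ± 0.14) and Cd300e was 17.9 ± 1.54 and 0.0493 ± 0.0429 FPKM (-8.72 ± 0.37), while Ccr2, the monocyte receptor for CCL2, was higher at 1.51 ± 0.171 FPKM against 0.384 ± 0.049 (1.66 ± 0.15). The Cd300e difference was -8.13 without KO replicate 2.

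Neutrophil markers gave 2 higher and 3 lower of 5: Cxcr2 had no reads in WT and 0.977, 0.995 and 1.01 FPKM in KO, at least 174-fold higher, and Csf3r was 138 ± 4.06 and 33.8 ± 3.12 FPKM (-2.33 ± 0.06). S100a9, Retnlg and Elane were too low to be tested. The other tested genes of this list went both ways: S100a8 had mean levels of 3.6 FPKM in WT and 1.47 FPKM in KO, Camp 1.53 FPKM in WT and no reads in KO, both called lower, and Mmp8 5.61 and 8.78 FPKM, called higher. Mast cell markers were lower in 5 of 6 cases and mesothelial and fibroblast markers in 4 of 11 (2 with library totals, and 2 without KO replicate 1 or 2). B cell markers were higher in 1 and lower in 2 of 9, dendritic cell markers higher in 2 and lower in 1 of 7 (1 higher without WT replicate 3), endothelial and smooth muscle markers higher in 2 and lower in 3 of 7 (0 higher without WT replicate 1, 1 without WT replicate 2 or 3 or without KO replicate 2 or 3), and eosinophil markers higher in 1 of 2. Some defining genes were at or near 0 in both groups: Flt3 at 0 FPKM in WT and 0.021 ± 0.0364 in KO, and Epx and Prg2 at 0 in both. Other members of these lists were present. Mean levels in WT and KO were 22.3 and 5.58 FPKM for Ighm of the B cell list (-2.30). Siglecf of the eosinophil list had 0.0807 and 2.97 FPKM (4.85). Ccr7 of the dendritic cell list had 1.13 and 0.321 FPKM (-2.11), and the endothelial gene Kdr 4.41 and 3.95 FPKM (-0.46). No erythroid marker had enough reads to be tested. What part these cells had in the genotype differences was not tested.

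To learn which differences belong to the treated state, each was set against the difference between untreated KO and WT cells. Without oxLDL 5359 genes were called (31%), 2559 higher in KO (14.8%) and 2800 lower (16.2%), so 47.8% of these calls were upward (31.5% with library totals). Of the genes called with oxLDL, 1947 were higher and 2159 lower in both states, 3156 were higher and 2323 lower with oxLDL and not called untreated, and 431 were called in opposite directions (183 higher with oxLDL and lower untreated, 248 the reverse). A missing call is not a test of difference, so the difference of the genotype effects (with oxLDL minus untreated) was tested directly. It was called in 7217 genes (41.7%), 3828 upward (22.1%) and 3389 downward (19.6%). Of 6681 genes called both there and between genotypes with oxLDL, 6416 had the larger genotype difference with oxLDL and 265 the smaller. Choosing genes called with oxLDL favours those with the larger difference in that state. The split therefore does not measure how often the genotype difference was wider with oxLDL.

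The inflammatory groups were lower in KO already without oxLDL and by more with it. Their summed levels in KO moved far less between the states than those in WT, which were higher with oxLDL, although oxLDL was not tested within a genotype. The summed level of interferon-stimulated genes was 1381 to 1451 FPKM in untreated WT and 5351 to 5962 FPKM in WT with oxLDL, against 158 to 168 and 169 to 187 FPKM in KO. The sum over cytokines was 224 to 239 and 2503 to 2551 FPKM in WT and 112 to 116 and 121 to 142 FPKM in KO, and that over NF-κB targets 1600.3 to 1650.2 and 5599 to 5994 FPKM in WT and 449 to 461 and 452 to 481 FPKM in KO. On the first principal component of all tested genes (61% of the variance), the 6 KO libraries of both states lay together, and WT with oxLDL lay farther from them than untreated WT. The cytokine median was -1.69 untreated and -5.08 with oxLDL, and 19 of 27 cytokine genes had a more negative difference with oxLDL by the direct test. For chemokines the medians were -2.39 and -6.49 (14 of 21), for NF-κB subunits and IκB proteins -0.82 and -2.26 (15 of 16), for NF-κB targets -1.5 and -4.55 (29 of 30), and for interferon-stimulated genes -2.92 and -5.28 (34 of 34). Tnf stood at 46.3, 41.2 and 44.3 FPKM in untreated WT and 4.32, 4.44 and 3.64 FPKM in untreated KO, and its genotype difference was -4.17 ± 0.15 further down with oxLDL (adjusted p = 4.3e-11). Il1a in untreated cells was at 34.3, 31.3 and 35.5 FPKM in WT and 26.9, 28.1 and 27.9 FPKM in KO, and its genotype difference was -4.90 ± 0.07 further down with oxLDL (adjusted p = 1.7e-14). Rela was 34.6, 30.4 and 31.0 and 24.2, 23.0 and 22.4 FPKM untreated (-1.36 ± 0.10).

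Some upward differences were larger with oxLDL too. Pparg was 8.2, 8.1 and 8.18 FPKM in untreated WT and 27.3, 29.3 and 28.9 FPKM in untreated KO, and its WT level with oxLDL was the lowest of the 4 groups. Its genotype difference was 3.05 ± 0.10 larger with oxLDL (adjusted p = 1.1e-11). Idh1 was 95.9, 98.5 and 98.0 FPKM in untreated WT and 124, 129 and 129 FPKM in untreated KO (2.75 ± 0.06, adjusted p = 4.8e-13). Sesn1 (2.90 ± 0.09), Cd300a (2.75 ± 0.06), Vsir (2.40 ± 0.06) and Thbd (2.99 ± 0.09) had the same form. Lysosomal genes were higher in KO in both states, 20 of 24 untreated and 18 of 24 with oxLDL, with 10 differences more positive and 5 more negative with oxLDL. Cholesterol synthesis genes were higher in 17 of 23 cases untreated, with a median of 0.53, and 9 differences were more positive and 3 more negative with oxLDL. Among all genes 14.8% were higher in KO untreated, and 22.1% of differences were more positive and 19.6% more negative with oxLDL.

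Cell cycle genes ran against this pattern. Untreated, 20 of 22 mitosis genes were lower in KO, with a median of -1.32, and 9 differences were shifted upward with oxLDL and 2 downward. Of 22 replication genes 17 were lower in KO untreated, with a median of -0.49, and 12 differences were shifted upward with oxLDL and 2 downward. Among all genes 16.2% were lower in KO untreated, and 22.1% of differences were shifted upward and 19.6% downward. With library totals the upward shifts numbered 7174 of 17291 genes, and list counts of shifts on that scale are not given here. Igf1 changed direction between states: it was lower in KO untreated (-0.47 ± 0.04) and higher with oxLDL (1.09 ± 0.04). On library totals 79.6% of the called differences of effects were upward, against 53% with TMM, so small values of either sign depend on scaling.

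**Figure D5:**
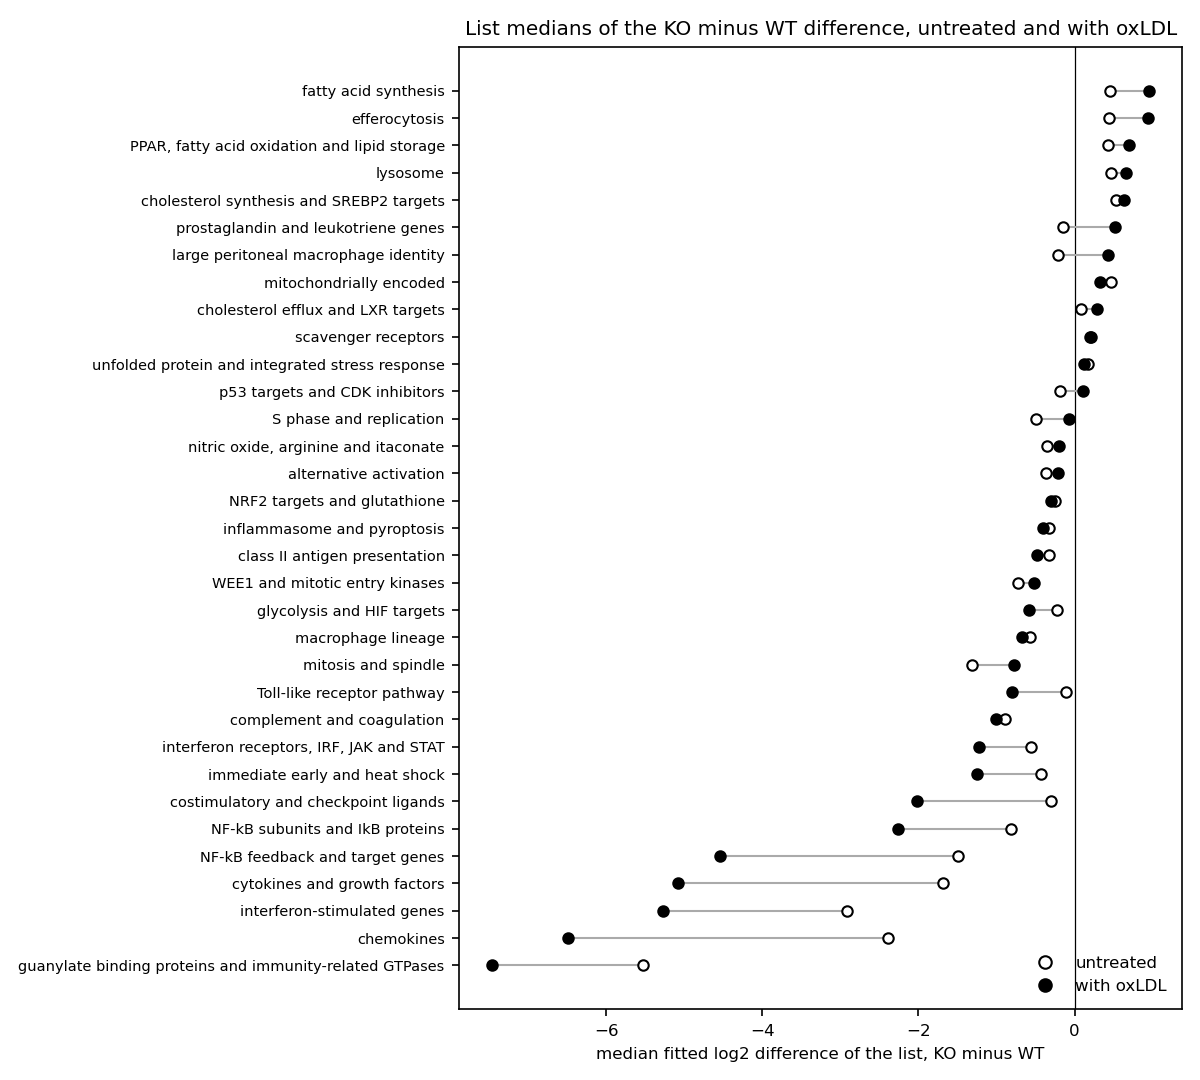
Median fitted log2 difference of KO minus WT over the tested members of each of 33 gene lists, untreated (open circles) and with oxLDL (filled circles). The 6 lists with the lowest medians with oxLDL, from guanylate-binding proteins (-5.53 untreated, -7.46 with oxLDL) to NF-κB subunits (-0.82 and -2.26), lie lower with oxLDL than without.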

How the data were processed

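Poly(A) RNA was sequenced in pairs on an Illumina NovaSeq, per the labels' protocols, which speak of RNA of an adipose type although the labelled source is peritoneal macrophages. Reads were processed with HISAT2 2.0 and Bowtie 0.12.2, per the submitters' processing notes; the read counter, its annotation and strand use were not given in the sources used here. The authors deposited raw read counts and FPKM per gene for each library, per the file headers. Without known strand use, reads of overlapping or antisense genes cannot be told apart.

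From the counts, edgeR 4.0.16 in R 4.3.3 (TMM, filterByExpr, quasi-likelihood test, Benjamini-Hochberg adjustment) was fitted to all 12 libraries in 4 groups without a block. It was tested on simulated data in which all groups shared the same mean profile apart from a small set of genes. That simulation held no wide shift in composition such as the TMM factors show here, so it does not test the scaling. Contrasts were KO minus WT with oxLDL, the same untreated, and their difference. Where a group held no reads, folds are lower bounds against 3 counts over the group, scaled by library size. Floors and intervals cover counting error only. An exact permutation test of 3 against 3 libraries cannot go below p = 0.1, so none was used. No 2 libraries of a group were identical. Deviations of WT and KO libraries with oxLDL gave no sign of pairing by replicate number. Pairing of untreated with treated libraries was not tested.

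The comparison and the 43 gene lists were chosen with earlier results of these data known. Named genes were 10 genes of the pathway whatever their values, the 10 largest called log2 differences each way at 1 FPKM or more with groups that did not overlap, the 10 largest FPKM differences each way, up to 3 called members of each list each way, and the 5 smallest adjusted p-values each way for the difference of the contrasts; others are marked as outside the rule. Some genes that the rule or the lists hold are not reported here. Alternatives were library totals, upper quartile and quantile scaling (limma 3.58.1), DESeq2 1.42.0, limma on log2(FPKM + 1) and log2(FPKM + 0.1), no filter, a replicate block, stricter thresholds, the 6 libraries alone, and leaving out each library.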

Additional observations from a re-analysis of the deposited data

Results flagged for a closer look

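Of 248 genes given by the naming rule, 195 had a KO minus WT difference with oxLDL that differed from the same difference without it by the direct test of the difference (edgeR, adjusted over all genes), 92 upward and 103 downward. Among all genes tested the share was 41.7%. The rule picks genes by large differences with oxLDL and partly by this same test, so a higher share is built in. The 17 listed here are those of the 195 that were named as pathway genes or for the smallest adjusted p of that test, and they are not the largest shifts. Among others, Galnt9 (5.77), Cd28 (3.95) and Pparg (3.05) shifted upward by more. The values are log2, with oxLDL minus untreated. Among inflammatory genes the shift was -6.49 for Il1b, -5.02 for Il6, -4.90 for Il1a, -4.81 for Ccl2, -4.20 for Ccl3, -4.17 for Tnf and -3.94 for Il1rn, so each of these was further below WT with oxLDL than without. The arginine importer Slc7a2 shifted by -4.64, and the NF-κB subunit genes Nfkb1 and Rela by -1.91 and -1.36. Upward shifts among the 17 were 2.99 for Thbd, 2.90 for Sesn1, 2.75 for Idh1 and for Cd300a, and 2.40 for Vsir. The smallest shifts of the 17 were those of 2 lipid genes, Cd36 by 0.29 and Abca1 by -0.66. Without replicate 3 of untreated KO, the remaining untreated KO libraries held no Il6 reads, and the Il6 shift was -0.33 and not called. The Abca1 shift was 0.10 with quantile normalization.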

How the results depend on the processing

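With oxLDL the number of genes called was 9339 when the 6 libraries were fitted alone, 10122 in DESeq2, 10840 with library totals and 9422 to 9740 when any 1 of the 6 libraries was left out, against 10016. Genes lower in KO numbered 2981 in limma on log2(FPKM + 0.1) and 2990 on log2(FPKM + 1), against 4730, and requiring a 2-fold difference left 2558 higher and 2376 lower, against 5286 and 4730. For the difference of the genotype effects, 3828 upward and 3389 downward calls became 7174 and 1835 with library totals, 6710 and 1919 on log2(FPKM + 0.1), 6629 and 1980 on log2(FPKM + 1), and 6547 and 2132 on log2(FPKM + 1) with no filter. With the replicate block 9767 genes were called with oxLDL. Same-numbered WT and KO libraries with oxLDL correlated at -0.04, -0.01 and -0.02 in their deviations from group means, and none of the 3 pairs correlated best with its own number. These values gave no sign of pairing by number between genotypes, but with 3 libraries a group they cannot exclude it. Pairing between untreated and treated libraries was not tested. Of 267 values of named genes, 238 kept direction and call under each alternative. Direction turned for Psap (-0.040), Lamp2 (0.21) and the Abca1 shift (0.10) with quantile normalization, and for Hspa5, which was 0.16 with library totals, 0.15 on log2(FPKM + 0.1), 0.15 on log2(FPKM + 1) with or without a filter, and 0.49 with quantile normalization. The cause was not tested. The fold moved by over 1.5 times for 48 of 248 named genes with quantile normalization, 47 of 231 on log2(FPKM + 0.1), 107 of 231 on log2(FPKM + 1), 6 in DESeq2 and none with library totals. Library totals move all genes by nearly the same log2 amount, and the median of all genes went from 0.05 to 0.36. That amount is below 1.5-fold, so the absence of moves with library totals was fixed in advance. Differences below about 0.4 log2 rest on the scaling, and genes under about 0.1 FPKM on few reads.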

Other observations

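Protective and stress programmes did not move as blocks in KO with oxLDL. Of 22 NRF2 target and glutathione genes 12 were lower and 7 higher, with a median of -0.30. Slc7a11, the cystine importer, was 40.9, 41.1 and 40.1 FPKM in WT and 3.15, 3.2 and 3.17 FPKM in KO (-3.98 ± 0.07), and Hmox1, which degrades haem, was 556, 576 and 569.7 FPKM in WT and 185, 182 and 168 FPKM in KO (-1.97 ± 0.05). Gstm1, a glutathione transferase, was higher at 129, 116 and 123 FPKM in WT and 581, 580.4 and 576 FPKM in KO (1.94 ± 0.05), as was Gpx1 at 78.6, 37.7 and 44.5 FPKM in WT and 128, 174 and 208 FPKM in KO (1.36 ± 0.23), where WT replicate 1 lay above the other WT libraries. Among 20 genes of the unfolded protein and integrated stress responses, 9 were higher and 3 lower (15 and 2 with library totals): the kinase Eif2ak3 was 1.73 ± 0.291 FPKM in WT and 6.02 ± 0.0446 FPKM in KO (1.5 ± 0.09), and Asns, asparagine synthetase, was 5.51 ± 0.158 and 2.15 ± 0.409 FPKM (-1.65 ± 0.17).

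Immediate early and heat shock genes were lower in 14 of 24 cases and higher in 3, with a median of -1.25. The near-identical heat shock genes Hspa1a and Hspa1b differed most, with Hspa1a at 27.5, 7.13 and 6.69 FPKM in WT and 0.346, 0.493 and 0.864 FPKM in KO (-4.90 ± 0.53). WT replicate 1 stood apart from the other WT libraries in both, and the Hspa1a difference was -3.92 without it. Jun was higher in KO at 14.6, 8.59 and 8.67 FPKM in WT and 39.6, 40.0 and 51.5 FPKM in KO (1.73 ± 0.17). Transcripts of the mitochondrial genome were higher in 11 of 13 cases and lower in none, with a median of 0.32. DESeq2 gave 10 higher and 1 lower, and library totals gave 13 higher. The median of all genes itself moved from 0.05 with TMM to 0.36 with library totals. mt-Nd3 differed most, at 39.7, 53.7 and 43.9 FPKM in WT and 132, 96.9 and 97.0 FPKM in KO (0.95 ± 0.14). Class II antigen presentation genes gave 5 lower and 3 higher of 9 (3 lower with library totals, and 1 higher without WT replicate 1): the transactivator Ciita was 2.81 ± 0.271 and 0.863 ± 0.0297 FPKM (-2.00 ± 0.11), and H2-Eb1 was 20.3 ± 5.42 and 45.2 ± 2.27 FPKM (0.85 ± 0.15).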
